A study of Rattus norvegicus with 6 samples.

Results

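The EGF family ligands Hbegf, Areg, Ereg, Btc, Tgfa and Egf were examined in rat Schwann cells stimulated with soluble Neuregulin1 (NRG1). They were picked out by symbol, and all 6 were among the 17327 genes of each count table. Hbegf, Btc and Tgfa, 3 of the 6, had enough counts for a test. Tgfa was down-regulated by NRG1 to 0.580 of its mock level, and neither Hbegf nor Btc passed the test. Areg and Ereg were counted at 5 reads or fewer in every library, and Egf had no read in any.

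RNA was sequenced from 3 independent preparations of primary Schwann cells, the glia of peripheral nerves, taken from the sciatic nerves of adult Wistar rats. Each preparation, called a culture here, gave 1 mock and 1 NRG1 library with the same number, so that each group held 3 samples. NRG1 samples received 10 nM recombinant soluble NRG1β1 for 6 h, and mock samples received the same volume of PBS with 1% albumin. Before that, all cells had been expanded in medium with a neuregulin supplement (glial growth factor per the labels). Starvation for 18 h followed, in 2% serum with forskolin at 10 μM, an agent that activates adenylyl cyclase. It was also present during both treatments, so the mock cells were not untreated cells. The number of animals behind each culture was not stated in the sources used here.

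Ligands of the EGF family are made as membrane-anchored precursors. A metalloprotease, often ADAM17, cuts them from the surface, and the free ligand binds a receptor of the ErbB family. Tgfa, Areg and Egf bind the EGF receptor, whereas Hbegf, Btc and Ereg bind the EGF receptor and ErbB4. NRG1, the stimulus used here, is a more distant relative that binds ErbB3 and ErbB4, and in Schwann cells it acts mainly through the pair ErbB2 and ErbB3. In many cell types ErbB signalling through ERK raises the transcripts of EGF family ligands, which can then act on the same cells.

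Counts on genes ranged from 6821590 to 15475018 per library, and 3 counts, taken as the floor, equalled 0.194 to 0.444 CPM. CPM, the unit of all levels given here, are read counts scaled to a common library size after TMM normalisation. Culture 1 stood apart from the other two in both of its libraries. The 9 Schwann cell markers in the tables summed to 4763 and 6077 CPM in culture 1 and to between 12655 and 16238 CPM in the other 4 libraries. The 10 fibroblast markers summed to 70913 and 72147 CPM in culture 1 and to between 15609 and 24482 CPM elsewhere. Dcn, the matrix proteoglycan decorin, had 4574 and 3203 counts in culture 1, and Thy1, a surface marker of fibroblasts, had 9493 and 8576. Both had 0 counts in each of the other 4 libraries. Of all genes tested, 23.4% differed between the 3 cultures in edgeR (adjusted p not above 0.01). So did 8 of the 9 Schwann cell markers. Of the 6 fibroblast markers tested, 5 differed. Fbln1 did not, at 7.71, 5.32 and 7.79 CPM in mock samples of cultures 1, 2 and 3. Col1a2 had 2 counts in the NRG1 sample of culture 2 and 0 in every other library. Between mock and NRG1 the summed fibroblast markers overlapped, with 15609 to 70913 CPM in mock and 15756 to 72147 CPM in NRG1 samples. Of the 6 tested, 0 passed in edgeR or DESeq2. In edgeR 2 had an unadjusted p under 0.05, as did 3479 of all 9740 genes tested. Without culture 1, 2 of the 5 then tested fell, against 601 of all 9926 genes. Of the 9 Schwann cell markers 4 fell with NRG1, against 5.51% of all genes tested, and 2 without culture 1. Sox10, the transcription factor that defines the lineage, changed by 0.11 on the log2 scale (SE 0.13). Macrophage markers summed to 3.55 to 10.3 CPM with Ptprc at 0. Endothelial markers summed to 6.40 to 15.2 CPM with Pecam1 and Cdh5 at 0. Perineurial markers summed to 115, 196 and 195 CPM in mock samples of cultures 1, 2 and 3. In NRG1 samples they summed to 116, 108 and 130 CPM. Gjb6 and Lypd2 were at 0, and Cldn1 had 0 counts in mock and 0, 2 and 9 in NRG1 samples. The sum thus rested on Itgb4 and Slc2a1, which alone do not identify perineurial cells. Both of the 2 perineurial markers tested passed, against 11.8% of all genes tested. The integrin gene Itgb4 was lower (log2 fold change -1.44) and the glucose transporter gene Slc2a1 was higher (0.59). Without culture 1, 1 of them passed, as lower. Epithelial markers summed to 4.71 to 10.9 CPM in mock and 16.5 to 27.1 CPM in NRG1 samples, the upper values coming from Epcam, which rose by 1.96 on the log2 scale.

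Tgfa encodes transforming growth factor alpha, a classical ligand of the EGF receptor. In mock samples of cultures 1, 2 and 3 it was counted 1109, 1543 and 2747 times, which was 145, 228 and 216 CPM. In NRG1 samples it was counted 801, 1006 and 1846 times, which was 105, 113 and 119 CPM. The groups did not overlap, since the lowest mock sample lay above the highest NRG1 sample. Of all 9740 genes tested, 9.86% had every NRG1 sample below every mock sample. The spread between cultures was wide in mock (196.4 ± 45.0 CPM, SD, n = 3) and narrow after NRG1 (112.2 ± 7.23 CPM, SD, n = 3).

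The log2 ratios of NRG1 to mock for Tgfa were -0.47, -1.01 and -0.86 in cultures 1, 2 and 3. Tgfa thus fell in every pair, least in culture 1. A fall in all 3 pairs was seen in 29.9% of the genes tested. The fitted log2 fold change was -0.79 (SE 0.13), with a 95% interval of 0.478 to 0.704 for the fold. The adjusted p was 0.00074 in edgeR's quasi-likelihood test with the culture as a replicate block. The test was passed, with an adjusted p not above 0.01, by 11.8% of the genes tested, and 5.51% passed it as lower after NRG1. The change of Tgfa was larger than that of 91.6% of them, yet it stayed under the absolute log2 fold change of 1 that the study's rule for a regulated gene also asks for. No member was regulated by both thresholds in edgeR or in DESeq2, a rule that 3.47% of the genes tested met. At an unadjusted p under 0.05 in edgeR Tgfa was the single member, and 3479 of all 9740 genes tested reached it. The summed perineurial markers, almost wholly Itgb4 and Slc2a1, fell beside Tgfa in cultures 2 and 3 but not in culture 1. Among them Itgb4 fell in every culture, with log2 ratios of -1.45, -1.55 and -1.31. Slc2a1 rose in every culture, with log2 ratios of 0.80, 0.36 and 0.60. The part of these markers in the change of Tgfa was not tested. Without culture 1 the log2 fold change of Tgfa was -0.93 (edgeR, adjusted p = 5.9e-06). In the fit without the replicate block it was -0.81, and the call was lost (adjusted p = 0.19).

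**Figure D1:**
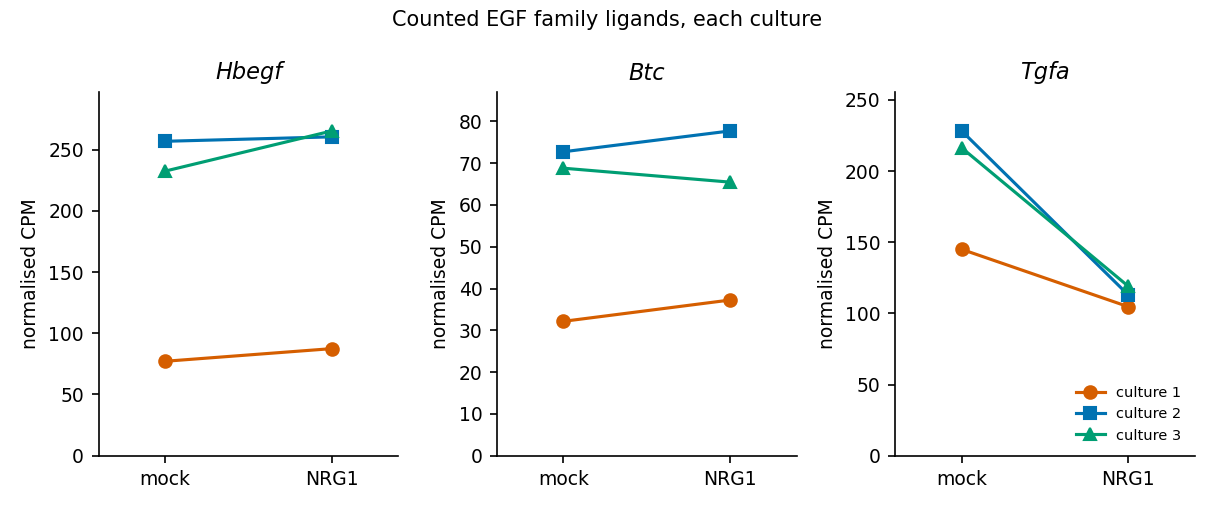
Normalised CPM of Hbegf, Btc and Tgfa on a linear axis from 0, in mock and NRG1 samples, with 1 line for each culture. Tgfa fell in all 3 cultures to between 105 and 119 CPM, while the lines of Hbegf and Btc stayed nearly level and those of culture 1 lay below the others.

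Hbegf encodes heparin-binding EGF-like growth factor, which also serves as the receptor of diphtheria toxin. Its counts were 590, 1737 and 2953 in mock and 669, 2319 and 4112 in NRG1 samples of cultures 1, 2 and 3. In CPM this was 77.1, 257 and 232 in mock and 87.4, 260.4 and 265 in NRG1 samples. Each NRG1 sample lay slightly above its own mock sample, with log2 ratios of 0.18, 0.02 and 0.19, whereas the groups overlapped. NRG1 lay above mock in all 3 pairs in 26% of the genes tested. The fitted log2 fold change was 0.13 (SE 0.12, adjusted p = 0.47, edgeR), and the 95% interval of the fold ran from 0.918 to 1.30. A larger change than 1.30-fold therefore lay outside the interval, but a small one could not be told from the spread. Without culture 1 the log2 fold change was 0.11 (SE 0.18).

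Btc encodes betacellulin and was the least counted of the 3 tested members, with 246, 492 and 874 counts in mock and 285, 692 and 1015 in NRG1 samples. Its levels were 32.2, 72.7 and 68.8 CPM in mock and 37.2, 77.7 and 65.5 CPM in NRG1 samples of cultures 1, 2 and 3. The groups overlapped, and the log2 ratios of 0.21, 0.10 and -0.07 did not share a sign. The fitted log2 fold change was 0.07 (SE 0.12, adjusted p = 0.72, edgeR), with a 95% interval of 0.874 to 1.26 for the fold. Without culture 1 it was 0.01 (SE 0.18).

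**Figure D2:**
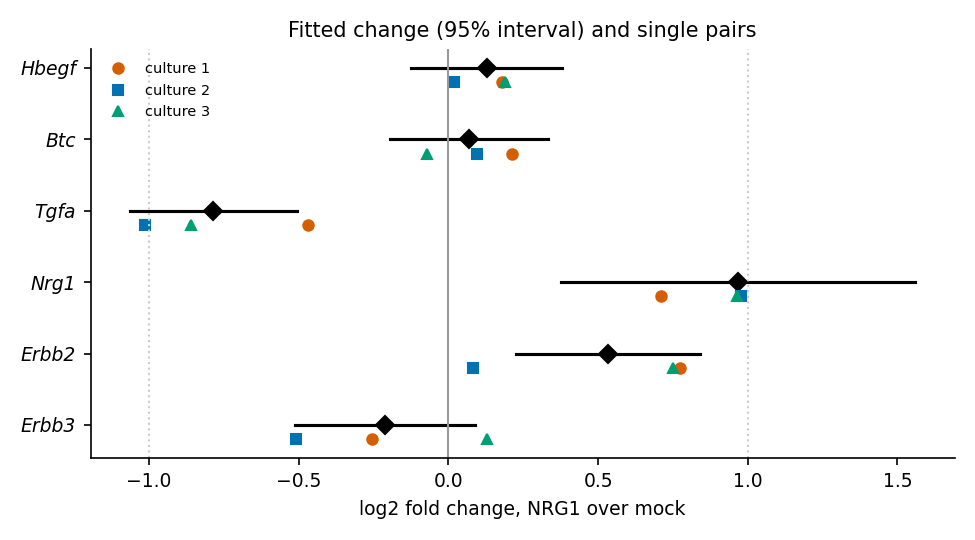
Log2 fold change of NRG1 over mock for the 3 tested ligands, for Nrg1 and for the tested ErbB receptors. Diamonds and bars are the fitted value and its 95% interval, coloured points are the single cultures, and dotted lines mark a log2 fold change of 1 in either direction. The interval of Tgfa, at -0.79, lies apart from those of Hbegf and Btc, at 0.13 and 0.07.

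**Figure D3:**
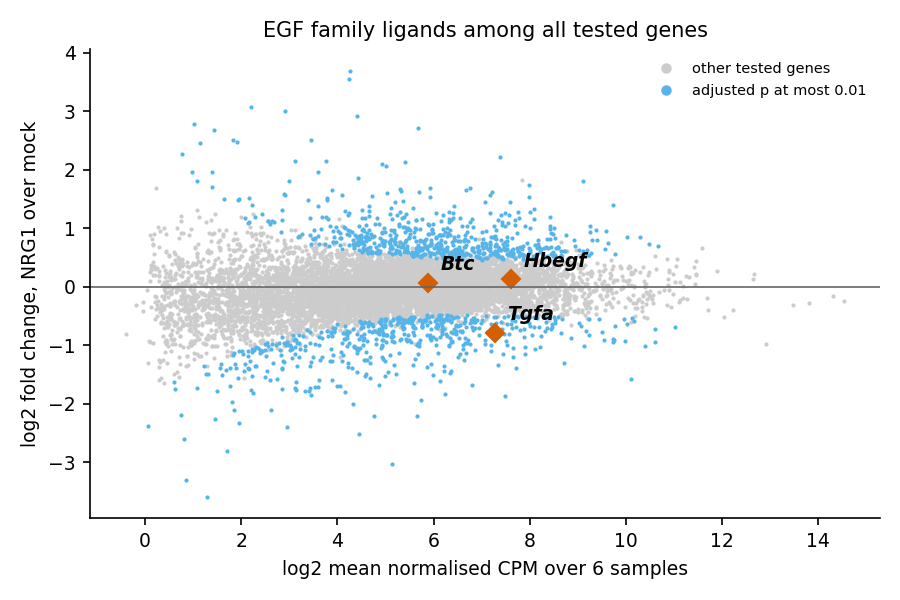
Log2 fold change against log2 mean normalised CPM of the 6 samples for all 9740 genes tested, with the genes that passed the test in blue. Orange diamonds mark the members, with Tgfa at -0.79 among the genes that passed and Hbegf and Btc, at 0.13 and 0.07, among those that did not.

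The ratio of 2 ligands within 1 library needs no scaling between libraries, and its change from mock to NRG1 shows how their responses differed. In mock samples of cultures 1, 2 and 3 there were 0.532, 1.13 and 1.07 Hbegf counts per Tgfa count, and in NRG1 samples 0.835, 2.31 and 2.23. On the log2 scale this ratio rose by 0.65, 1.03 and 1.05, a mean of 0.91 ± 0.23 (SD, n = 3). The ratio of Btc to Tgfa rose in every culture too, by 0.68, 1.11 and 0.79. That of Hbegf to Btc changed by -0.03, -0.08 and 0.26. For the first 2 ratios an exact two-sided sign-flip permutation test gave p = 0.25, which is the smallest value that 3 pairs allow, and for the third it gave p = 1. Among the counts of Hbegf, Btc and Tgfa together, Tgfa took 57.0%, 40.9% and 41.8% in mock and 45.6%, 25.0% and 26.5% in NRG1 samples. These shares compare samples and not genes, since transcript lengths were not used here.

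Levels of Hbegf and Btc differed more between cultures than between treatments. Hbegf was higher in culture 2 than in culture 1 by 1.63 on the log2 scale (SE 0.15) and higher in culture 3 than in culture 1 by 1.57 (SE 0.15). Btc was higher by 1.09 (SE 0.15) and 0.93 (SE 0.15) in the same comparisons. Tested over the 3 cultures, the adjusted p in edgeR was 1.1e-06 for Hbegf, 0.00014 for Btc and 0.15 for Tgfa. Of all genes tested, 23.4% passed this test between cultures. Both libraries of culture 1 lay below the other 4 libraries for Hbegf and Btc, as they did in 21.9% of the genes tested. Cultures 2 and 3 differed by -0.06 (SE 0.14) for Hbegf, -0.16 (SE 0.15) for Btc and -0.01 (SE 0.16) for Tgfa. Without culture 1, no member passed the test between the cultures left.

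Culture 1 was also the one with low Schwann cell markers and high fibroblast markers, and fewer cells of a type cannot be told apart from less RNA per cell in such bulk samples. To set the members beside a Schwann cell marker, their counts were divided by those of Sox10, a reference chosen after its values were seen. Hbegf then had 19.9, 23.6 and 19.8 counts per 100 Sox10 counts without NRG1 in cultures 1, 2 and 3, and 18.7, 24.5 and 21.1 with it. Its highest library exceeded its lowest by a factor of 1.31, against 3.44 in CPM. Btc had 8.30, 6.67 and 5.86 per 100 Sox10 counts in mock and 7.96, 7.32 and 5.21 in NRG1 samples. Culture 1 was thus no longer the lowest for Btc. Tgfa had 37.4, 20.9 and 18.4 per 100 Sox10 counts in mock and 22.4, 10.6 and 9.47 in NRG1 samples, so it fell in each culture on this scale too, by log2 ratios of -0.74, -0.98 and -0.96. The choice of marker changed the comparison between cultures. Over the 9 Schwann cell markers, the ratio of Hbegf to the marker in mock culture 1 was between 0.341 and 2.04 times that of the mean of the other mock cultures. The part of the cell mixture in the level of the members was not tested.

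**Figure D4:**
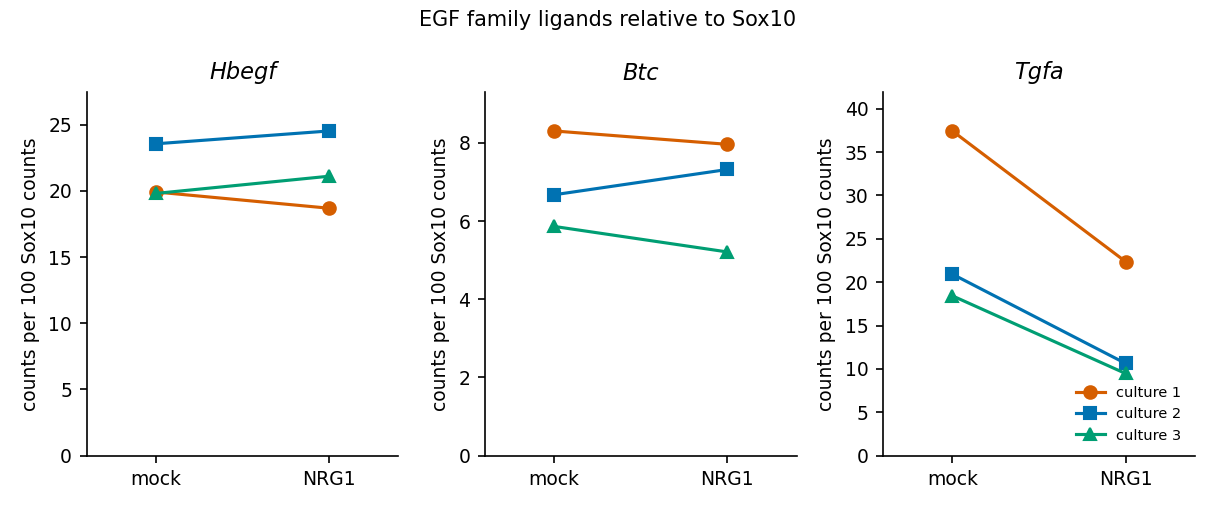
Counts of Hbegf, Btc and Tgfa per 100 counts of Sox10 in the same library, in mock and NRG1 samples of each culture. Hbegf lies between 18.7 and 24.5 in all 6 libraries, while Tgfa falls in each culture and is highest in culture 1.

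Areg and Ereg, which encode amphiregulin and epiregulin, were close to the limit of counting. Areg had 2, 1 and 1 counts in mock and 1, 5 and 3 counts in NRG1 samples of cultures 1, 2 and 3. Summed over libraries this was 0.15 CPM in mock (95% exact Poisson interval 0.040 to 0.380) and 0.28 CPM in NRG1 samples (0.128 to 0.533), and the groups overlapped. Ereg had 1, 4 and 1 counts in mock and 0, 1 and 3 counts in NRG1 samples. This was 0.22 CPM (0.082 to 0.484) against 0.12 CPM (0.034 to 0.319), again with overlap. These intervals cover counting error only. Neither gene passed the low-count filter. In the edgeR fit without that filter, over 13129 genes, the adjusted p was 0.71 for Areg and 0.72 for Ereg, so a difference was not detectable at this depth. Egf had 0 counts in all 6 libraries. Over their counts together the floor of 3 counts equalled 0.051 CPM, and the upper limit of the 95% exact Poisson interval was 0.0625 CPM. Epgn, the gene of the related ligand epigen, was at 0 as well.

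**Figure D5:**
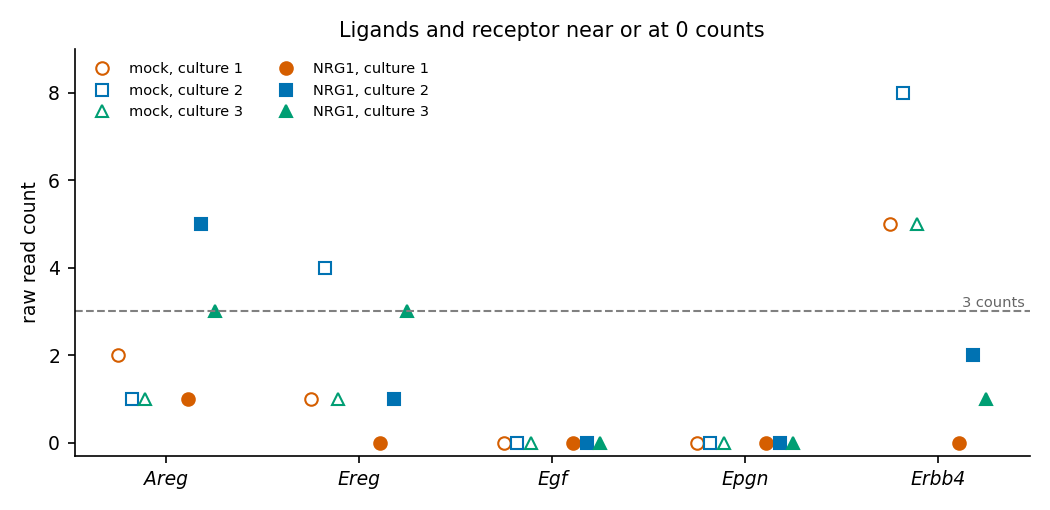
Raw read counts of Areg, Ereg, Egf, Epgn and Erbb4 in the 6 libraries, with open symbols for mock and filled symbols for NRG1 samples, and a dashed line at 3 counts. Areg and Ereg lie between 0 and 5 counts with overlapping groups, Egf and Epgn are at 0, and Erbb4 lies at 5 to 8 counts in mock and 0 to 2 in NRG1 samples.

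In the RefSeq table of the rat genome build GRCr8, Btc, Areg, Ereg and Epgn are 4 consecutive genes of chromosome 14, and no gene of that table overlaps any of the 6 members. The first of these neighbours, Btc, was thus counted 246 to 1015 times per library while the next ones were near or at 0. The 250 bases before the RefSeq start of Tgfa, the member that fell, of Btc and of Areg are shown to set these cases side by side. Capitals mark matches to the motifs searched.
Tgfa (chr4:120175469-120175718, plus strand): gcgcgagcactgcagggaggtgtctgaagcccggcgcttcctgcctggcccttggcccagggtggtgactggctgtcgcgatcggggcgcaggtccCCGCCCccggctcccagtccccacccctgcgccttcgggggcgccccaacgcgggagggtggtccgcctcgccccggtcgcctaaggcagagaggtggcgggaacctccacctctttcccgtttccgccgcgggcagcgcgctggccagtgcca
Btc (chr14:16992418-16992667, plus strand): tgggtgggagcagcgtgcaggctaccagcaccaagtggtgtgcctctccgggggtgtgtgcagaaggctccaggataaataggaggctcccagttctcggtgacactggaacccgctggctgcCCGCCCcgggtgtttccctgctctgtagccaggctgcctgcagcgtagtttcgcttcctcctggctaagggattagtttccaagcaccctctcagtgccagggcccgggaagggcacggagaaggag
Areg (chr14:17265642-17265891, minus strand): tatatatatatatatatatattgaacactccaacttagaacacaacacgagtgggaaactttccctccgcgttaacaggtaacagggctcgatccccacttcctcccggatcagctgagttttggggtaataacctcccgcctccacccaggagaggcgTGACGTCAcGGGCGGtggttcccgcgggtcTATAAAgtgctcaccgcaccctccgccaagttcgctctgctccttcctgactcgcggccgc

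The motifs were searched on both strands as plain letters. They were TGACGTCA, the full cAMP response element bound by CREB-type factors, its short form TGACG, the AP-1 site TGANTCA, the TATA box TATAAA and the GC box GGGCGG. Of 33469 rat promoters of this length, 1.59%, 18.2%, 6.34%, 12.9% and 30.5% held them. Areg held the full cAMP response element, 91 to 84 bases before its start. This match includes 2 overlapping matches to the short form. It also held a TATA box 61 to 56 bases and a GC box 82 to 77 bases before the start. Tgfa and Btc held the GC box alone, on the opposite strand, 154 to 149 and 127 to 122 bases before the start. Hbegf held the short form TGACG, 193 to 189 bases before its start, and Egf held none of the 5. A match is a description of the letters and not a bound site. The table has 5 of the 6 members and not Ereg.

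The receptors of these ligands were counted very unequally. Egfr, the gene of the EGF receptor that all 6 ligands bind, had 152 counts in mock and 192 in NRG1 samples of culture 1, and 0 counts in both libraries of cultures 2 and 3. It was thus seen in the culture that also held Dcn and Thy1 counts, and the part of that difference in the cell mixture was not tested. Erbb4 had 5, 8 and 5 counts in mock and 0, 2 and 1 counts in NRG1 samples, so that the groups did not overlap. Every NRG1 sample lay below every mock sample in 9.86% of the genes tested, which did not include Erbb4. Without the low-count filter the adjusted p of Erbb4 in edgeR was 0.040, over the threshold of 0.01. Erbb3, the receptor that binds NRG1 in Schwann cells, was counted at 778 ± 321 and 684 ± 322 CPM (SD, n = 3) in mock and NRG1 samples, with a log2 fold change of -0.21 (SE 0.14, adjusted p = 0.30, edgeR). Erbb2, its partner, had a log2 fold change of 0.53 (SE 0.14, adjusted p = 0.016, edgeR), with log2 ratios of 0.77, 0.08 and 0.75. It passed when culture 2 was left out (0.76, adjusted p = 0.00063) and without the low-count filter (adjusted p = 0.0020). Neither of the 2 tested receptors passed the test in edgeR or DESeq2. In edgeR 1 of them had an unadjusted p under 0.05, as did 3479 of all 9740 genes tested. Both receptors differed between cultures, as 23.4% of all genes tested did, and were lowest in culture 1.

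Among the neuregulins Nrg1 itself was counted 11, 19 and 29 times in mock and 19, 51 and 72 times in NRG1 samples. Its log2 ratios were 0.71, 0.98 and 0.96, and its fitted log2 fold change of 0.97 (SE 0.28) had an adjusted p of 0.021 in edgeR, over the threshold. DESeq2 did not call it either (adjusted p = 0.13), while its unadjusted p in edgeR was under 0.05. Nrg2 had 13 and Nrg4 had 5 counts over all libraries, and Nrg3 was not among the 17327 genes counted.

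Of 11 tested genes for shedding and trafficking none rose in edgeR, 1 fell, and DESeq2 made 1 call. This was close to the 11.8% of all genes tested that passed in either direction. At an unadjusted p under 0.05 in edgeR were 3 of the 11, in either direction, and 3479 of all 9740 genes tested. The gene that fell was Timp3, an inhibitor of metalloproteases, with a log2 fold change of -0.64 (SE 0.14, adjusted p = 0.0061). Adam17, the main sheddase of Tgfa and Hbegf, changed by -0.20 (SE 0.12) and did not pass. The median of this list was -0.16, against -0.03 for all genes tested. Of 6 genes for Cd44 and heparan sulfate proteoglycans, which hold heparin-binding ligands such as Hbegf and Areg at the cell surface, 3 rose, against 6.31% of all genes tested. These were Sdc1 with 1.62 (SE 0.24, adjusted p = 0.00031), Gpc1 with 0.73 (SE 0.14, adjusted p = 0.0018) and Cd44 with 0.65 (SE 0.14, adjusted p = 0.0045). DESeq2 called 2 of these 6 genes, both as higher. The median of the list was 0.31. Without culture 1 only Sdc1 of these 6 passed, with a log2 fold change of 2.12.

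Among 6 tested inhibitors of ErbB receptors, which include Errfi1 and Cblb, none passed in edgeR or DESeq2. In edgeR 1 had an unadjusted p under 0.05, against 3479 of all 9740 genes tested. Without culture 1 the ubiquitin ligase gene Cblb fell by 0.78. Of 19 adaptors and kinases between the receptor and ERK, 3 rose and 1 fell, against 6.31% and 5.51% of all genes tested. Shc3 and Shc4, adaptors that bind activated receptors, rose by 2.15 (SE 0.24) and 1.28 (SE 0.14) on the log2 scale, and Map2k1, the kinase that activates ERK, by 0.59 (SE 0.12). Gab1, a docking protein, fell by 0.52 (SE 0.13). The list median was 0.03. Without culture 1 again 3 rose and 1 fell, but the one that fell was then Shc2 (log2 fold change -0.76) and Gab1 no longer passed.

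Most transcripts known to follow ERK activity changed. Of 17 tested, 11 rose, against 6.31% of all genes tested, 1 fell and 5 did not pass. The median log2 fold change was 1.05. Fosl1 rose by 1.69 (SE 0.15), Etv5 by 1.65 (SE 0.14), Ccnd1 by 1.39 (SE 0.13) and Dusp6, an ERK phosphatase, by 1.23 (SE 0.13). The one that fell was Egr1, with -1.13 (SE 0.26, adjusted p = 0.0071, edgeR). Its log2 ratios were -0.02, -1.97 and -1.46 in cultures 1, 2 and 3, so that it was level in culture 1. DESeq2 called 11 genes of this list, all as higher, and thus did not call Egr1. Without culture 1 again 11 rose and 1 fell in edgeR, against 590 and 601 of all 9926 genes. The 11 were not all the same, since Etv4 (log2 fold change 1.67) then passed and Myc no longer did. In the same libraries none of the 3 tested EGF family ligands passed the test as higher. Only 6.31% of all genes tested did, so that none among 3 does not set the ligands apart.

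The genes whose levels followed each member most closely were listed by Pearson r of log2 CPM over the 6 samples, which share 3 cultures in pairs. For Tgfa these were Slc2a13, Lnx2 and Ube2h, with r of 0.999, 0.993 and 0.992, and all 3 were lower after NRG1 (log2 fold changes -0.69, -0.70 and -0.64). This shared fall follows from their choice by likeness to Tgfa in the same samples. For Hbegf the closest genes were Srebf1, Chdh and Hps5, each with r of 0.998. For Btc they were Adipor1, Comp and Metrn, with r of 0.997, 0.996 and 0.995. With only 6 samples such values are common, since 275 genes had r over 0.95 with Hbegf, 201 with Btc and 93 with Tgfa.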

How the data were processed

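Poly(A) RNA of 3 cultures, each with 1 mock and 1 NRG1 sample, was sequenced on an Illumina NextSeq 500 from TruSeq libraries. Alignment by the authors was to rn5 (TopHat 2.0.10), htseq gave the reads on each RefSeq gene, and raw counts were deposited without normalization. The htseq version and strand setting are not given in the sources used here, and the summary lines of each table were left out, so that 47.0 to 49.9% of what each table holds fell on genes.

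Samples were grouped and paired by the titles. Counts were tested with edgeR 4.0.16 in R 4.3.3 (filterByExpr at a minimum count of 10, TMM, quasi-likelihood F test) with the culture as a block, as in the study's paired design. Benjamini-Hochberg adjustment ran over 9740 genes, and 7587 were filtered out. A gene passed if its adjusted p was not above 0.01, and was regulated if its absolute log2 fold change was also over 1. SE is the log2 fold change divided by the root of F. Ratios of single pairs used log2 CPM with a prior count of 2. Same-numbered samples came from 1 preparation, and their deviations from the group means correlated with r of 0.91, 0.67 and 0.81 across genes. Mock 2 with NRG1 3 and mock 3 with NRG1 2 each gave r of 0.51, while unlike pairs with culture 1 gave negative r. These values thus set cultures 2 and 3 apart less clearly than culture 1. No pair of libraries agreed within sampling noise.

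The members, the gene lists and the tests were chosen with earlier results of these data known. Named genes were all members, receptors and other ErbB ligands, and up to 4 passing genes with the largest change per list. The 3 most alike genes per tested member were named too. Marker genes, Adam17, Errfi1, Cblb, Shc2, Egr1, Etv4 and Myc were added after their values were seen. DESeq2 1.42.0, RLE scaling, other filters, no replicate block and leaving out each culture were the main alternatives. The scripts were tested on simulated counts.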

Additional observations from a re-analysis of the deposited data

How the results depend on the processing

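Depth limited Areg, Ereg and Egf, for which a change could not be detected at a few counts per library. Erbb4 was also at a few counts per library. In the edgeR fit without the low-count filter its adjusted p was 0.040, over the threshold of 0.01. The fit with no replicate block gave 0 of 3 members past the test, 0 regulated genes against 338 and 0 other ErbB pathway genes against 20, with a log2 fold change of -0.81 for Tgfa. Its smallest adjusted p was 0.14, and 1334 genes had an unadjusted p under 0.05. DESeq2 with no replicate block, chosen after seeing the data, gave 0 members, 101 regulated genes, 8 pathway genes and -0.80 for Tgfa (adjusted p = 0.017). With the fold change threshold inside the test 22 genes were regulated. Leaving out each culture in turn gave from 0 to 2 members that differed between cultures, with 0 without culture 1. It gave from 255 to 501 regulated genes and from -0.93 to -0.67 for Tgfa, which passed each time. Removing the block changed no other call of a member. Under RLE scaling, both other low-count filters, robust empirical Bayes, DESeq2 with the block and thinned counts (the last chosen after seeing the data), Tgfa passed and Hbegf and Btc did not. No member reversed its direction under any alternative run. The causes of these differences were not tested.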
